A study of Homo sapiens with 4 samples.

Results

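The loci of 5 transcription factors of the thyroid lineage, PAX8, NKX2-1, FOXE1, HHEX and GLIS3, were examined in ATAC-seq peak lists of BCPAP cells, an established human line derived from a papillary thyroid carcinoma. Members were the peaks that overlapped 5 windows on hg19, each a gene with flanks of about 20 kb: PAX8 on chromosome 2 from 113950 to 114060 kb, NKX2-1 on chromosome 14 from 36960 to 37010 kb, FOXE1 on chromosome 9 from 100590 to 100640 kb, HHEX on chromosome 10 from 94425 to 94480 kb, and GLIS3 on chromosome 9 from 3800 to 4370 kb. Peaks of the 4 libraries that shared at least 1 bp were merged into regions, and 191 of the 373425 regions on chromosomes 1 to 22 and X lay in these windows: 54 at PAX8, 23 at NKX2-1, 18 at FOXE1, 9 at HHEX and 87 at GLIS3. There were 2 libraries of untreated cells and 2 of cells treated with 5-azacytidine, a nucleoside drug that binds up the DNA methyltransferases and so lowers the methylation of CpG sites. The study used it to ask how methylation bears on accessibility. The labels give no dose or time, nor whether replicates were separate cultures, so their spread may be technical. Pairs of values below give replicate 1 and then replicate 2.

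PAX8 is a paired-domain factor, NKX2-1 and HHEX are homeodomain factors, FOXE1 is a forkhead factor and GLIS3 is a zinc finger factor. The first 4 are expressed together in the thyroid primordium and are needed for the gland to form or survive, and PAX8 and NKX2-1 bind the promoters of thyroid hormone synthesis genes such as thyroglobulin. GLIS3 is also active in pancreatic islets and kidney, and acts with PAX8 and NKX2-1 on iodide transport genes. ATAC-seq marks DNA that a transposase can reach, so these data show the accessibility of the loci and not the expression of the genes.

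CpG sites are unevenly spread over the promoters of these genes, and their methylation was not measured in these data. RefSeq (GRCh38.p14) gave the 250 bases before each gene's first listed start, shown 5′ to 3′ on the gene's own strand (minus for PAX8, NKX2-1 and GLIS3, plus for FOXE1 and HHEX) with each CpG in capitals.
PAX8: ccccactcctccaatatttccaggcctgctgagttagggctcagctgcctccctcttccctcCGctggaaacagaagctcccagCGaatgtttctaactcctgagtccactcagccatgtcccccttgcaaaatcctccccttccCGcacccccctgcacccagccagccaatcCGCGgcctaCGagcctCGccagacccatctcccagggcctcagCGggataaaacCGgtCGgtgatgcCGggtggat
NKX2-1: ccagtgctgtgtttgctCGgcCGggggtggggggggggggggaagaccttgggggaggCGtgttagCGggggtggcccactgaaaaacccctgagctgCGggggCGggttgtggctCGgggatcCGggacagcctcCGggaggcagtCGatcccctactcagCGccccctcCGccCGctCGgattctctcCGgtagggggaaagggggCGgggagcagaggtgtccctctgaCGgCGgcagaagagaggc
FOXE1: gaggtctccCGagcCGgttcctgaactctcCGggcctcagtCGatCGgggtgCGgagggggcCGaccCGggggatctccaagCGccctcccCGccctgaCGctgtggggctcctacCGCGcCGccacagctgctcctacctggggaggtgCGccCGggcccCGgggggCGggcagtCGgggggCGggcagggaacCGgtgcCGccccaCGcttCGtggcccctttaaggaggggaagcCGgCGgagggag
HHEX: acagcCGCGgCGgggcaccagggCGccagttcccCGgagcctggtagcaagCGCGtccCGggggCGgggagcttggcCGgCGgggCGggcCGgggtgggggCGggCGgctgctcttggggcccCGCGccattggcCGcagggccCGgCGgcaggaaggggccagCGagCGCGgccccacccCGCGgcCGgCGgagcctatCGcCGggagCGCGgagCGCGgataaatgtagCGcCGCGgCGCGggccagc
GLIS3: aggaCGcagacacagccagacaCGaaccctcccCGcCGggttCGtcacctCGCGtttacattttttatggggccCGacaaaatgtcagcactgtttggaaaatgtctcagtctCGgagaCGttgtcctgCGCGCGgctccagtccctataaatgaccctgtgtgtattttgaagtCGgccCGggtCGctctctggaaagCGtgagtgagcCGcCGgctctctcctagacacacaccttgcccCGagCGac
HHEX had 38 CpG sites in this stretch, FOXE1 26, GLIS3 21, NKX2-1 18 and PAX8 11. Over 35116 RefSeq promoters the median was 11, and 96.7% of them held fewer CpG sites than the HHEX promoter. A second start of NKX2-1 had 7 sites and a second start of GLIS3 had 2. Starts were not placed on hg19, so no peak is called a promoter peak here. The windows also hold other transcripts. Among the RefSeq genes within 20 kb of each gene are PSD4 and the antisense RNA PAX8-AS1 beside PAX8, SFTA3 and NKX2-1-AS1 beside NKX2-1, and PTCSC2 beside FOXE1. HHEX had no other gene within that distance. The RefSeq model of GLIS3 is 666339 bp long, more than the 570 kb of its window.

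A peak's height is given as its summit coverage, the number of reads stacked at the summit, which follows from the authors' fold enrichment and is at least 4 in any listed peak. The 2 untreated lists were 221110 and 223345 peaks long and the 2 treated lists 259572 and 245142, and the number of reads is unknown. Peaks of the treated libraries were lower genome-wide: over the 105414 regions found in all 4 lists the untreated libraries had a median coverage of 23 and 18 and the treated libraries one of 11 and 16. Coverage was therefore also given scaled, as a multiple of that median in the same library. With 2 libraries against 2, the smallest p an exact permutation test allows is 0.333, so no difference below could pass a threshold.

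All 5 loci held listed peaks in every library. Treated cells had about as many as untreated cells, with 166 and 189 against 181 and 182 over the 5 windows. On chromosomes 1 to 22 and X the treated lists were 13.6% longer, a log2 ratio of 0.18. Over the 5 windows the treated mean was below the untreated mean, with a log2 ratio of −0.03. That ratio was 0.058 without treated replicate 1. The PAX8 window held 48 and 54 peaks without treatment and 50 and 55 with it. The NKX2-1 window held 35 and 30 against 30 and 34, and the GLIS3 window 69 and 66 against 57 and 67. In these 3 windows the groups overlapped. At FOXE1 both treated lists had fewer peaks, with 19 and 19 against 20 and 23 (exact two-sided permutation p = 0.333). With the window shortened by 10 kb on each side the order at FOXE1 turned (log2 ratio 0.05 in place of −0.18). At HHEX both treated lists had more, with 10 and 14 against 9 and 9 (exact two-sided permutation p = 0.333). Of these, 3 peaks at HHEX were listed in treated replicate 2 alone, each with a coverage of 5. With weak peaks removed (−log10 q under 5) the HHEX order turned, with a log2 ratio of −0.39 in place of 0.42.

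**Figure D1:**
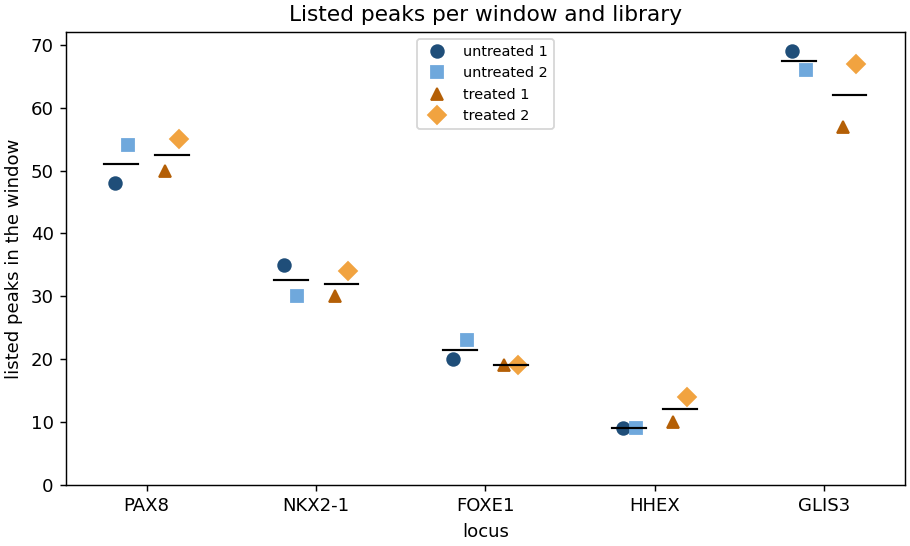
Number of listed peaks (vertical axis) in the window of each locus (horizontal axis) by library, with the mean of each group of 2 as a line. The groups overlap at PAX8, NKX2-1 and GLIS3, while the treated libraries lie below at FOXE1 (19 and 19) and above at HHEX (10 and 14).

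The loci differed in how densely they were accessible. NKX2-1 had 60 to 70 listed peaks per 100 kb over the 4 libraries, the highest density of the 5 on this count. PAX8 had 43.6 to 50 and FOXE1 38.0 to 46.0, and these ranges overlap. HHEX had 16.4 to 25.5 and GLIS3 10 to 12.1. Each summit of a wide peak counts as a listed peak here. The tallest NKX2-1 region alone held 8 and 7 of them without treatment and 4 and 6 with it. As merged regions, NKX2-1 had 23 in 50 kb and PAX8 54 in 110 kb, so the order of these loci depends on the count used. The median over 48168 tiles of 50 kb with a peak in any list was 3 peaks per tile in each library, or 6 per 100 kb. The mean per tile was higher, at 4.59 and 4.64 untreated and 5.39 and 5.09 treated. A window's density is an average, so the mean is the like measure, and GLIS3 was near it. Sites at the 5 loci were also shared more often: 86 of the 191 regions (45.03%) were common to all 4 lists, against 28.2% of all regions, and 29.8% were private to a single list, against 45.9%. These shares were not tested, and the windows were chosen around genes. The share in all 4 lists was 66.7% at HHEX, 65.2% at NKX2-1, 9 of 18 regions at FOXE1, 42.6% at PAX8 and 37.9% at GLIS3.

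**Figure D2:**
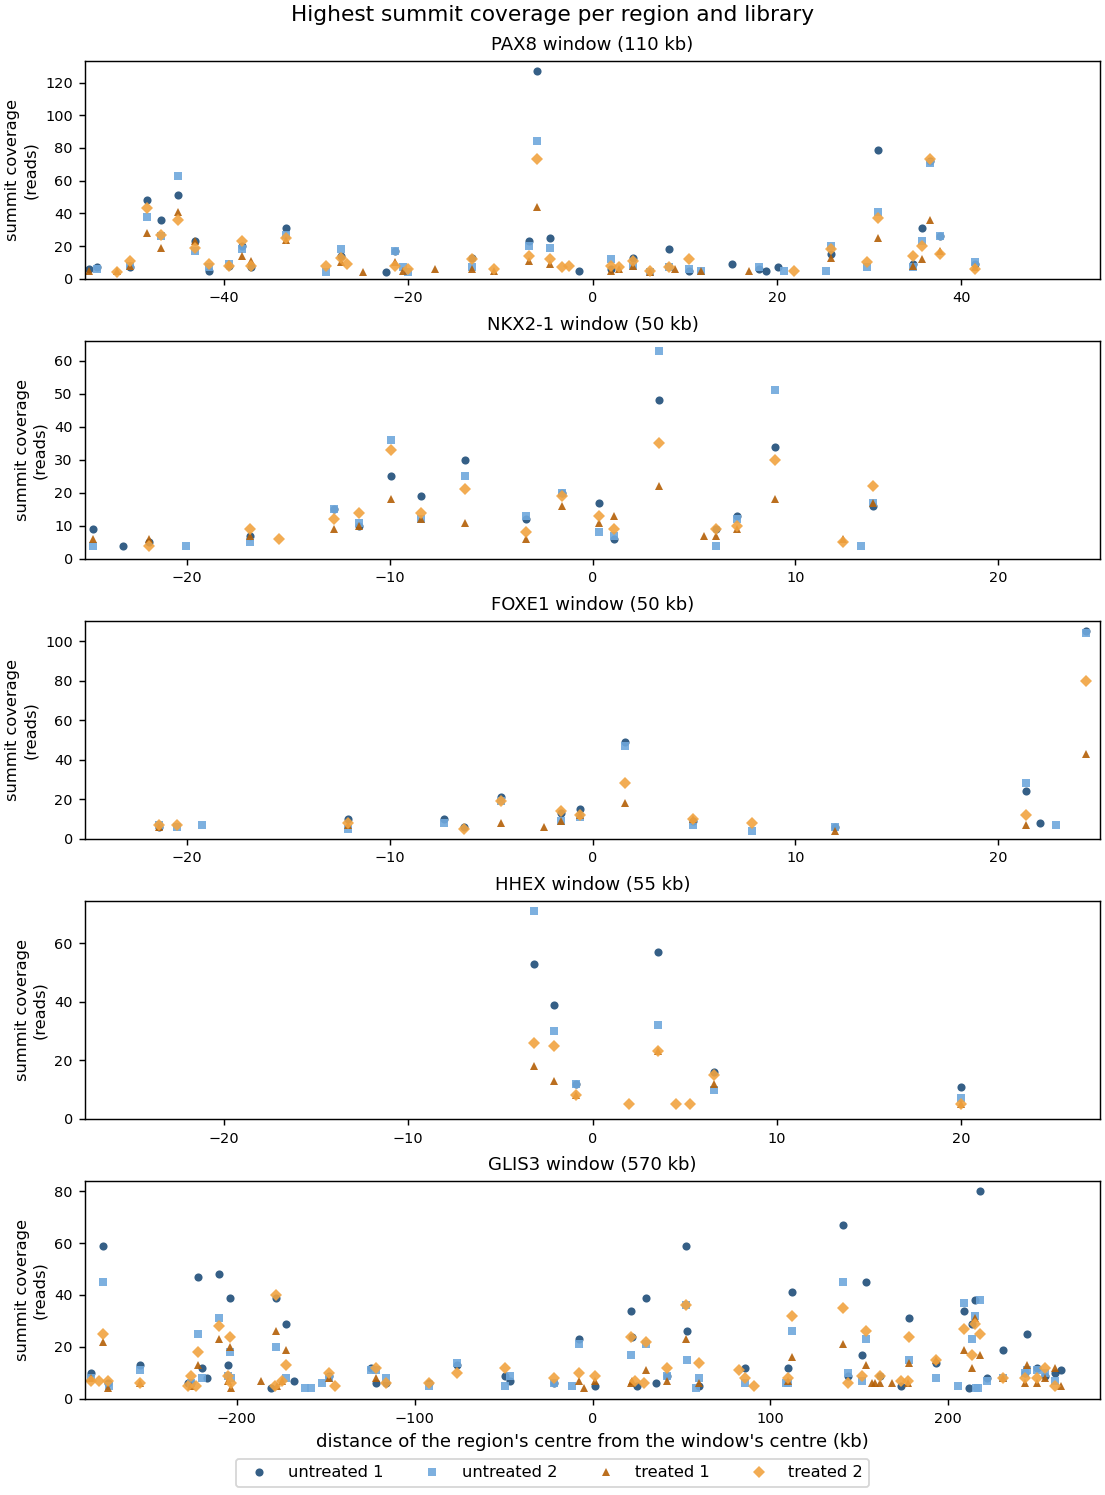
Highest summit coverage in reads (vertical axis, own scale per locus) of each region, against the distance of its centre from the window's centre in kb (horizontal axis, higher coordinates to the right), 1 mark per library with a peak there. The tallest regions lie 6.0 kb left of the centre at PAX8, 3.3 kb right at NKX2-1, 24.3 kb right at FOXE1 and 3.2 kb left at HHEX, and they are spread widely at GLIS3.

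Few sites appeared or disappeared. Regions listed for both treated libraries but no untreated one were called gained, and the opposite case lost. The windows held 6 gained regions, 3.14% of 191, against 4.21% of all regions, and 8 lost regions, 4.19%, against 3.35%. Both shares are near the genome-wide ones. The gained regions were 3 at PAX8, 2 at GLIS3 and 1 at NKX2-1, and the lost ones 5 at GLIS3, 2 at PAX8 and 1 at FOXE1. HHEX had neither.

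All 6 gained regions were low. Their coverage was 4 to 7, close to the lowest that is listed. At GLIS3, chr9:3909935-3910734 had a coverage of 7 in each treated library and chr9:4261858-4262375 had 6 and 7. At the second of these the numbering of untreated replicate 1 skips, so a peak of that library may have been filtered out. At PAX8, chr2:114007531-114008258 had 6 and 7 and chr2:113994000-113994694 had 5 and 6. At NKX2-1, chr14:36996996-36997707 had 6 and 5.

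The tallest lost region was at GLIS3, where chr9:4137806-4138308 had a coverage of 26 and 15 without treatment and no listed peak in treated cells. The numbering of treated replicate 1 skips at that place. It adjoins chr9:4137269-4137783, which was in all 4 lists with 59 and 36 untreated against 23 and 36 treated. The next lost region of GLIS3, chr9:3960479-3960984, had 12 and 11. At FOXE1, chr9:100607435-100607943 had 10 and 8 in the untreated libraries. At PAX8, chr2:113951020-113951526 had 7 and 6 and chr2:114022746-114023291 had 6 and 7. Apart from the first GLIS3 region, the lost sites had a coverage of at most 12.

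Of the 86 regions found in all 4 lists, coverage was lower in both treated than in both untreated libraries in 38, or 44.2%, against 47.6% of all such regions. It was higher in both treated libraries in 3, or 3.49%, against 4.39%. The median log2 ratio of treated to untreated coverage was −0.45 over the 86 regions and −0.55 over all 105414. With scaled coverage, 14 of the 86 regions (16.3%) were lower in both treated libraries and 32 (37.2%) higher, against 22.2% and 27.2% of all shared regions. The median log2 ratio of scaled coverage was then 0.16 over the members and 0.06 over all shared regions, so the sign of the median turns with the scaling. The member value was 0.08 without treated replicate 1 and 0.25 without untreated replicate 2.

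Scaled ratios also depended on peak height. Over all shared regions, the median log2 ratio of scaled coverage was 0.57 where the mean coverage over the 4 libraries was 4 to 8 and −0.22 where it was 80 or more. In regions with a mean coverage of at least 30, a limit chosen after the data were seen, 6 of 18 members (33.3%) were lower in both treated libraries on the scaled measure, against 41.1% of 26273 regions. Unscaled, 14 of the 18 were lower, or 77.8%, against 72.0%. Set against the median of regions of like height, 49 of the 86 members lay above it and 37 below. For each locus the median is therefore also given relative to regions of like height.

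**Figure D3:**
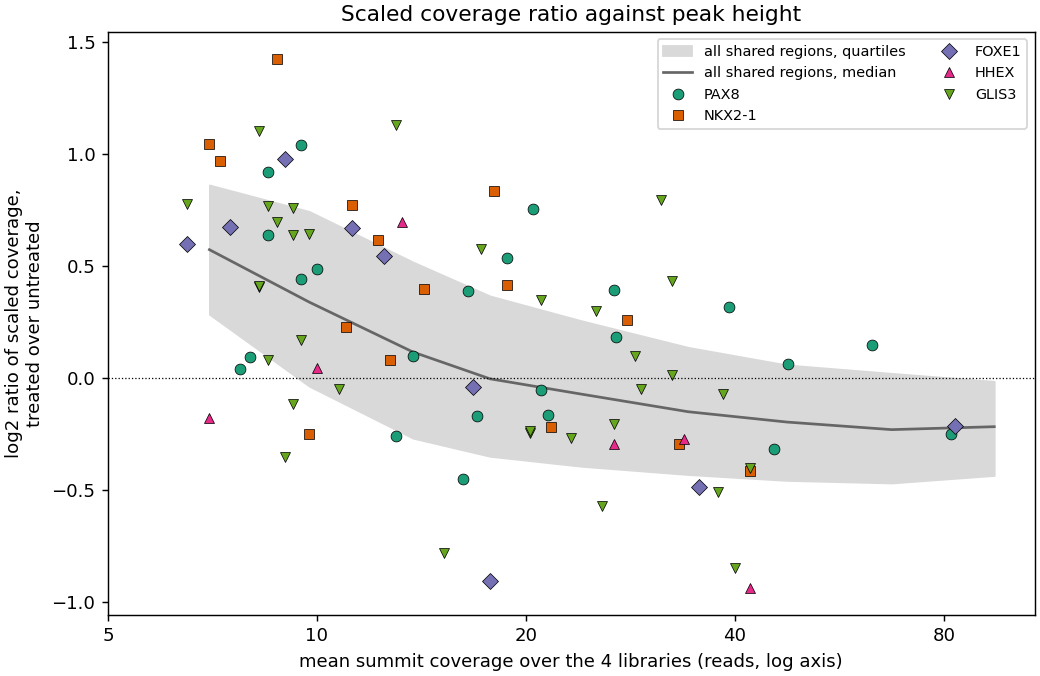
Log2 ratio of scaled coverage, treated over untreated (vertical axis), against mean summit coverage over the 4 libraries in reads (horizontal axis, log scale), for the 86 regions of the 5 loci found in all 4 lists. The grey line and band are the median and quartiles of all 105414 shared regions in bins of mean coverage; 5 of the 6 HHEX regions lie below the median of their bin, and 9 of the 15 NKX2-1 regions lie above it.

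HHEX was the locus with the lowest treated coverage relative to untreated. Unscaled, both treated libraries were below both untreated libraries in 5 of its 6 shared regions (83.3%), against 47.6% of all shared regions. With scaled coverage, 2 of the 6 (33.3%) were lower and 1 (16.7%) higher, against 22.2% and 27.2%. The median log2 ratio of HHEX was −0.85 unscaled and −0.22 scaled, against −0.55 and 0.06 over all shared regions. The highest site, chr10:94448846-94449848, had a coverage of 53 and 71 without treatment and 18 and 26 with it, or 62.0 ± 12.7 against 22 ± 5.66 (SD, n = 2 each). The log2 ratio was −1.49 unscaled and −0.94 scaled, and the groups did not overlap on either measure. Only 2.76% of the shared regions with a mean coverage of 40 to 60 had a lower scaled ratio. The naming rule picked this site for its height and for its scaled ratio, so the rank is no test. The site lies 3.2 kb below the window's centre, which the window's design puts near the gene. The RefSeq length of HHEX is 5693 bp on the plus strand.

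The other HHEX sites were less far apart. The neighbouring region chr10:94450033-94450780 had 39 and 30 against 13 and 25. On the other side of the centre, chr10:94455496-94456609 had 57 and 32 against 23 and 23, and its groups overlapped after scaling. One region went the other way: chr10:94458131-94460093 had 16 and 10 against 12 and 15, and was higher in both treated libraries on the scaled measure (log2 ratio 0.70). With treated replicate 2 left out the scaled median of the locus was 0.02, so its sign rests on that library.

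The FOXE1 window held 2 strong domains. The tallest site, chr9:100638623-100639990, stood 24.3 kb above the window's centre, downstream of the gene given its plus strand. Its centre was only 0.69 kb from the window's end. This site had a coverage of 105 and 104 without treatment and 43 and 80 with it. In each library at least 98.4% of regions were lower. Scaled, the groups overlapped there (log2 ratio −0.22). Just below it, chr9:100636091-100636623 had 24 and 28 against 7 and 12, a mean of 26.0 ± 2.83 against 9.50 ± 3.54 (SD, n = 2 each). Its scaled log2 ratio of −0.91 was the second lowest among the 86 members, and 4.30% of shared regions with a mean coverage of 16 to 20 had a lower one. This site was named for that ratio, so the rank is no test. Both sites fall outside the window when it is shortened by 10 kb on each side. PTCSC2 lies within 20 kb of FOXE1 but was not placed on hg19, so neither site can be ascribed to FOXE1 alone.

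The second FOXE1 domain lay at the middle of the window. The region chr9:100614970-100618259 was 3290 bp wide and had 49 and 47 untreated against 18 and 28 treated. It was lower in both treated libraries also after scaling (log2 ratio −0.49). Beside it, chr9:100618926-100621003 was a low site with 9 and 7 against 10 and 10, higher in both treated libraries on both measures. Of the 9 shared FOXE1 regions, 5 (55.6%) were higher in both treated libraries on the scaled measure and 2 (22.2%) lower. Among the 5 was chr9:100593334-100593889, with 6 and 7 in each group unscaled. Of all shared regions, 27.2% were higher and 22.2% lower, but these were taller, with a median of the mean coverage of 17.25 against 12.5. At FOXE1 the unscaled median log2 ratio was −0.12. The scaled median of 0.54 was the highest of the 5 loci, but it was 0.02 relative to regions of like height.

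NKX2-1 combined a tall central domain with many low sites. The tallest region, chr14:36986350-36990188, was 3839 bp wide, 3.3 kb above the window's centre, and had a coverage of 48 and 63 without treatment and 22 and 35 with it. The second, chr14:36992864-36995145, had 34 and 51 against 18 and 30. In both, the treated libraries were lower than the untreated ones unscaled and overlapped them when scaled (log2 ratios −0.42 and −0.30). No NKX2-1 region was lower in both treated libraries on the scaled measure, whereas 8 of 15 (53.3%) were higher. Of all shared regions, 22.2% were lower and 27.2% higher. Scaled ratios were higher at low sites genome-wide, with a median log2 ratio of 0.57 at a mean coverage of 4 to 8. At NKX2-1 the median log2 ratio was −0.25 unscaled and 0.40 scaled.

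Directly below the tallest NKX2-1 region lay chr14:36985825-36986341. The 2 are separate only because merging needed 1 bp of overlap, and a merging distance of 150 bp would join them. The lower one had 6 and 7 untreated against 13 and 9 treated, or 6.50 ± 0.707 against 11.0 ± 2.83 (SD, n = 2 each). Its log2 ratio was 0.76 unscaled and 1.42 scaled, the largest scaled value among the 86 members. Of shared regions with a mean coverage of 8 to 12, 96.7% had a lower one. The naming rule picked the site for this ratio, so the rank is no test. At such heights a difference of a few reads sets the ratio. Relative to regions of like height the median of NKX2-1 was 0.33, the highest of the 5 loci.

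PAX8 had a site about as tall as the tallest one of the FOXE1 window, with a mean coverage over the 4 libraries of 82 against 83. This region, chr2:113998441-113999610, in the interior of the window, had 127 and 84 without treatment and 44 and 73 with it. The groups did not overlap, although the untreated replicates differed from each other by more than untreated replicate 2 differed from treated replicate 2. Its scaled log2 ratio of −0.25 was near the middle of regions of like height, since 45.5% of those were lower. Beside it, chr2:113999812-114001066 had 25 and 19 against 9 and 12, with a log2 ratio of −1.07 unscaled and −0.45 scaled, the lowest scaled value at PAX8 among regions whose groups did not overlap.

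A second group of strong PAX8 sites lay toward the upper end of the window, where the minus strand and the flank of about 20 kb put the start of the gene. The second tallest region, chr2:114041356-114041887, had 72 and 71 untreated against 36 and 73 treated, so treated replicate 2 was as high as untreated cells. The region chr2:114035163-114036815, 24.0 kb from the window's end and singled out for its position after its values were seen, had 79 and 41 against 25 and 37. The low site chr2:114039473-114040008 had 9 and 7 against 8 and 14, with a scaled log2 ratio of 1.04. Of the 23 shared PAX8 regions, 9 (39.1%) were higher and 3 (13.0%) lower in both treated libraries on the scaled measure, against 27.2% and 22.2% of all shared regions. At PAX8 the median log2 ratio was −0.43 unscaled and 0.15 scaled.

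The lower end of the PAX8 window held sites of several heights. The region chr2:113958956-113961153 had 51 and 63 against 41 and 36, and chr2:113957695-113958769 had 36 and 26 against 19 and 27. The widest merged region of the 5 loci, chr2:113968644-113974950, spanned 6307 bp and had 31 and 27 untreated against 24 and 25 treated. It was lower in both treated libraries unscaled and higher in both when scaled. The region chr2:113961434-113962433 had 23 and 17 against 23 and 19, and these 4 regions were picked after their values were seen. At the last, the groups overlapped unscaled, while both treated libraries were higher when scaled. There 94.7% of shared regions of like height had a lower scaled ratio. PSD4 and PAX8-AS1 lie within 20 kb of PAX8 but were not placed on hg19. No site of the PAX8 window can therefore be ascribed to PAX8 alone.

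GLIS3 had scattered single sites over its long window. The site with the highest mean, chr9:4225264-4225819, had 67 and 45 without treatment and 21 and 35 with it, and was lower in both treated libraries also when scaled (log2 ratio −0.40). The next, chr9:4302106-4303117, had 80 and 38 against 17 and 25. Its log2 ratio was −1.49 unscaled and −0.85 scaled, and the untreated replicates themselves differed by more than untreated replicate 2 and treated replicate 2 did. Of shared regions with a mean coverage of 40 to 60, 4.55% had a lower scaled ratio. Since this site was named for its height and also for that ratio, the rank is no test.

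Other GLIS3 sites had scaled coverage that was higher in both treated libraries. The region chr9:4277665-4278185 had 14 and 8 untreated against 15 and 15 treated and was higher on both measures (log2 ratio 0.45 unscaled and 1.13 scaled). The region chr9:3906693-3907256, named after its values were seen, had 39 and 20 against 26 and 40, and 97.7% of shared regions of like height had a lower scaled ratio. Near the other end of the window, chr9:4299123-4300306 had 38 and 32 against 31 and 29, lower in both treated libraries unscaled and higher in both when scaled (log2 ratio −0.22 and 0.43). Of the 33 shared GLIS3 regions, 7 (21.2%) were lower and 9 (27.3%) higher in both treated libraries on the scaled measure, close to the 22.2% and 27.2% of all shared regions. The median log2 ratio was −0.48 unscaled and 0.10 scaled.

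**Figure D4:**
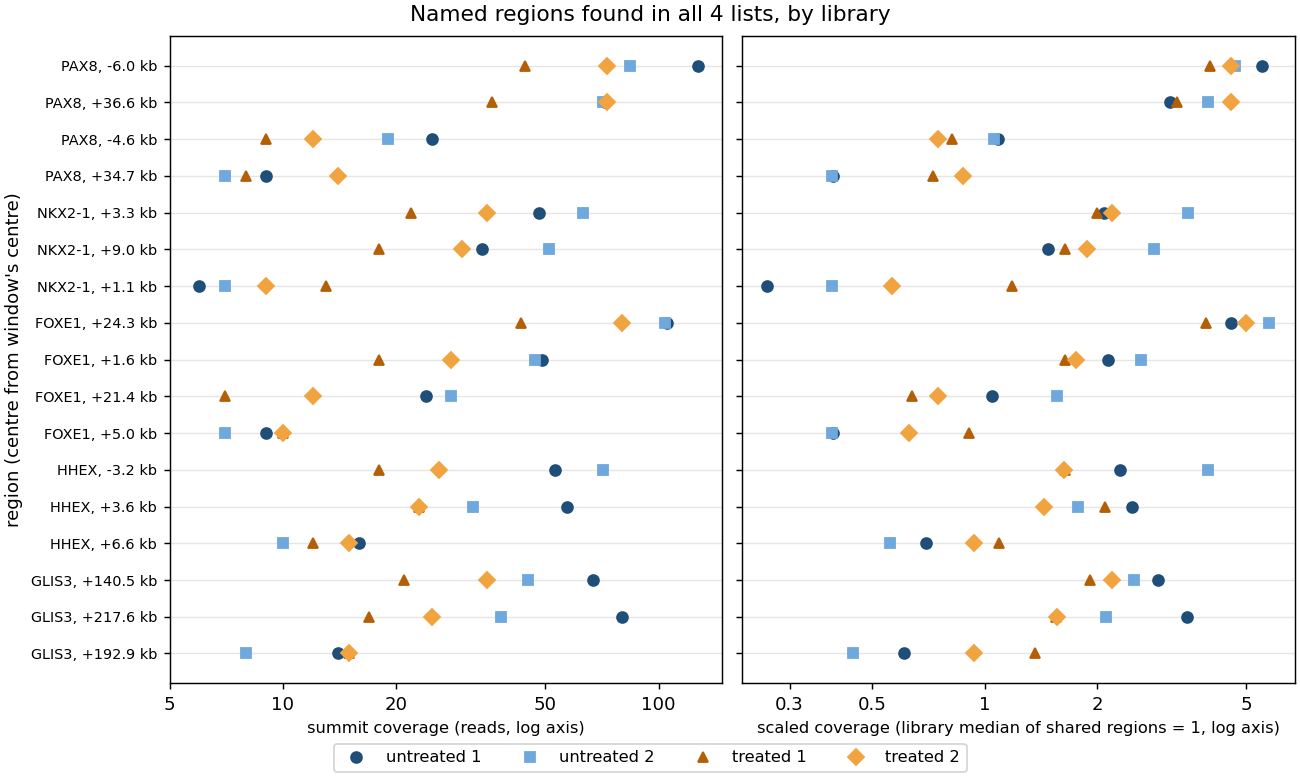
Summit coverage in reads (left, log axis) and scaled coverage (right, log axis, 1 is the library's median over shared regions) in each library, for the 17 regions found in all 4 lists that the naming rule picked, labelled by the distance of their centre from the window's centre in kb. The site of HHEX at −3.2 kb shows 53 and 71 untreated against 18 and 26 treated, and the groups remain apart after scaling. At the tallest site of the FOXE1 window, at +24.3 kb, they overlap after scaling.

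The order of the loci by treated relative to untreated coverage was similar with and without the correction for height, except for FOXE1. Relative to regions of like height the medians were 0.33 at NKX2-1, 0.15 at PAX8, 0.07 at GLIS3, 0.02 at FOXE1 and −0.26 at HHEX. Regions of 1 locus come from the same 4 libraries and are not replicates, so the differences between loci were not tested. The scaled medians also moved with single libraries. At FOXE1 the value of 0.54 became 0.27 without treated replicate 1 and 0.34 without untreated replicate 1. It became 0.39 without untreated replicate 2 and 0.62 without treated replicate 2. At NKX2-1 the value of 0.40 became 0.26, 0.25, 0.35 and 0.55 without the same libraries, in that order. At PAX8 the value of 0.15 became 0.0094 without untreated replicate 1, and 0.33 and 0.26 without untreated or treated replicate 2. At GLIS3 the value of 0.10 became 0.26 without untreated replicate 1 and 0.20 without treated replicate 2, against 0.010 without untreated replicate 2 and 0.0070 without treated replicate 1. At HHEX the value of −0.22 became −0.070 without untreated replicate 1, 0.02 without treated replicate 2 and −0.36 without treated replicate 1.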

How the data were processed

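ATAC-seq was deposited as 1 narrowPeak list per library. Per the submitters' processing notes, the authors used Trimmomatic, Bowtie2, Picard and MACS2 on hg19, with settings not given in the sources used here. Intervals had been set to 500 bp. The score column, rescaled by the authors, was not used here. The fold enrichment is the deposited ratio of the authors' peak caller over a uniform background. The −log10 p and q values are deposited values of the peak caller. They served only to shorten lists. Summit coverage was 5 times the fold over the list's smallest fold, minus 1, and was rounded to whole reads. Library totals are unknown, so no counting intervals were given.

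Peaks on chromosomes 1 to 22 and X were merged by 1 bp of overlap, and a region's coverage is its highest summit. Regions in all 4 lists are called shared. Scaled coverage was divided by the library's median over shared regions. Groups are compared as means of 2 libraries, with exact permutation tests for peak numbers. A peak number skipped between the neighbouring peaks of a list was called missing. Named regions were, per locus, the 2 tallest shared ones, up to 2 gained and 2 lost ones, and the extreme scaled ratio in each direction without overlap. Members and lists were chosen with earlier results of these data known. Merging was tested on simulated data. Hormone synthesis genes were not analysed here, since their hg19 positions were not at hand. Python 3.11.15, numpy 2.4.6, pandas 2.3.3 and matplotlib 3.10.9 were used.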

Additional observations from a re-analysis of the deposited data

How the results depend on the processing

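The log2 ratio of peak numbers over the 5 windows, −0.03, was −0.25 at a −log10 q of at least 5 and ranged from −0.13 to 0.058 when a library was left out. It turned at FOXE1 with shortened windows (0.047) and at HHEX at that q (−0.39). The 6 gained regions of 191 became 2 of 118 at that q and 3 of 164 with a merging distance of 150 bp. With summits of 100 bp on either side they became 10 of 331, and the 8 lost regions became 13. The gained shares were 1.69%, 1.83% and 3.02%, against 2.23%, 4.08% and 3.69% of all regions in the same settings. The lost shares were 7.63%, 4.27% and 3.93%, against 6.88%, 3.45% and 3.63%. Without 1 library a class needs fewer lists to match, which gave 8 to 22 gained and 11 to 24 lost regions. The genome-wide shares of gained and of lost regions also rose whichever library was left out. The median log2 ratio of coverage, −0.45, turned with scaling (0.16) and, in settings added after seeing the data, was 0.075 relative to regions of like height and −0.84 in regions with a mean coverage of at least 30. It ranged from −0.67 to −0.22 when a library was left out. The sign of the median also turned from negative to positive at PAX8 (0.15 both with scaling and relative to like height), NKX2-1 (0.40 and 0.33), FOXE1 (0.54 and 0.02) and GLIS3 (0.10 and 0.07), and not at HHEX. Scaling divides treated coverage by lower medians (11 and 16) than untreated coverage (23 and 18), which raises every ratio. Over all shared regions it moved the median from −0.55 to 0.06. Why the loci differed in these values was not tested. Same-numbered libraries did not deviate together (r = −0.05 across shared regions). With 2 libraries per group, both same-numbered pairs must give the same r, so this is a single value. The replicate block gave −0.04 for peak numbers and −0.44 for coverage. Low sites rest on few reads, which limits their ratios.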

Other observations

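Peaks of the authors' caller with several summits keep 1 number in the lists. At FOXE1 the central peak had 7 listed summits over 3917 bp in untreated replicate 2, more than 99.9% of the original peaks of that list, against 4 in untreated replicate 1 and 3 in each treated library. At HHEX the peak with the most summits had 5 in untreated replicate 2 and 3 in each other library. At NKX2-1 the most summits in 1 peak were 6 and 4 without treatment against 2 and 4 with it, in a different peak in each treated library from that of the untreated ones. At PAX8 they were 4 and 5 against 3 and 4, and the peak that held them differed between libraries. GLIS3 had no peak with more than 3 summits. The treated libraries also had lower coverage over shared regions (medians of 11 and 16 against 23 and 18), and its part in these numbers was not tested.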
